A study of Mus musculus with 24 samples.

Results

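The miR-29 family comprised the 3 mature miRNAs miR-29a-3p, miR-29b-3p and miR-29c-3p, each the 3p arm of its hairpin. They were taken by their full mouse names (mmu-miR-29a-3p, mmu-miR-29b-3p and mmu-miR-29c-3p) from the deposited tables of lung, and all 3 were found at every time point, among 1657 mature miRNAs at day 14, 1707 at day 90 and 1767 at day 180. The lungs came from C57BL/6 mice that were 6 to 8 weeks old when they were assigned to a group. Irradiated mice received X-rays to the whole chest, 15 Gy in total, and the control mice are labelled as controls with no other agent named. Irradiated and control lungs were sequenced at day 14, day 90 and day 180, with 4 libraries in each of the 6 groups and 24 in all. The labels do not say that the 4 libraries of a group came from separate animals, so p-values measure the spread between libraries, which may be technical.

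A miRNA guides Argonaute proteins to mRNAs that carry a match to its seed, the bases 2 to 8 of the miRNA, and such mRNAs are repressed. The miR-29 family is known for repressing mRNAs of the extracellular matrix, among them fibrillar and basement membrane collagens and elastin, and TGF-beta signalling is known to lower its level in fibroblasts. It is therefore described as antifibrotic in lung, heart, kidney and liver, and late fibrosis is a known consequence of irradiating the lung. Collagen mRNAs were not analysed here.

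The mature sequences show what the members share and where they differ, so they are given with the seed in capitals (5′ to 3′, RefSeq, GRCm38.p6).
miR-29a-3p: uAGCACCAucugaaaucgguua
miR-29b-3p: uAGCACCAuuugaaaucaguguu
miR-29c-3p: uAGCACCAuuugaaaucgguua

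All 3 carry the seed AGCACCA, and among 1679 mature mouse miRNA names in the RefSeq table only these 3 did. Counted from the 5′ end, miR-29c-3p differs from miR-29a-3p by 1 substitution, C10U. Over the same 22 bases miR-29b-3p differs from miR-29a-3p by C10U, G18A, U21G and A22U. It is 23 bases long and the other members are 22. Near-identical sequences can share or split reads in counting, and the sources used here do not say how such reads were assigned.

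The family comes from 2 loci with 2 hairpins each. On chromosome 6, Mir29a (chr6:31062660-31062747, minus strand) and Mir29b-1 (chr6:31063023-31063093, minus strand) lie 275 bases apart, and Mir29b-1 overlaps an exon of Gm27019, annotated as a long intergenic non-coding RNA gene. On chromosome 1, Mir29b-2 (chr1:195037040-195037120, plus strand) and Mir29c (chr1:195037547-195037634, plus strand) lie 426 bases apart. Both chromosome 1 hairpins overlap exons of the non-coding gene A330023F24Rik on the same strand and exons of Cd46, a complement regulator gene, on the opposite strand. The hairpins of miR-29b show why its level cannot be assigned to a locus: the capitals mark the mature 3p arm, which is the same in both.
Mir29b-1: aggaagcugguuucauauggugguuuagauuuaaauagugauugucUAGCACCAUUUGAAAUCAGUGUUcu
Mir29b-2: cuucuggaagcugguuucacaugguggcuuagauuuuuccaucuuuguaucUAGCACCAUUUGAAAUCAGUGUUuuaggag

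The site that pairs with the seed reads TGGTGCT in an mRNA, written as DNA, and TGGTGCTA when the base opposite the first base of the miRNA is an A. It was searched on the sense strand of the longest 3′ UTR of each protein-coding gene in the GENCODE annotation of GRCm38. Of 14 matrix and other genes listed because they are known miR-29 targets, 12 held the 7-base match (85.7%). It was in 13.1% of 21007 protein-coding genes and in 19.4% of the 11473 with a 3′ UTR in the length range of the listed genes. The median 3′ UTR of these 11473 was longer, 1823 bases against 1260 for the listed genes. The 8-base match, which contains the shorter one, was in 10 of 14 (71.4%), against 2.9% of all genes and 4.2% of those in the length range. Of the 8 collagen genes on the list 7 held the 7-base match. Col5a1 had 4 matches, and Col1a2 and the matrix protein gene Sparc had none in this window. The genes were listed for being known targets, so their share is a description of the sequences and not independent of that knowledge. A match is not evidence of binding in these lungs. One 30-base window each from type I collagen, type III collagen and elastin shows the match, with the 8-base match in capitals.
Col1a1: gaaggaatttcTGGTGCTAtagaagctgag
Col3a1: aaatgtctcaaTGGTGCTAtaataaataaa
Eln: ctcatcaacgtTGGTGCTActgcttggtgg
These windows lie at chr11:94952527-94952556 (plus strand), chr1:45348971-45349000 (plus strand) and chr5:134703725-134703754 (minus strand).

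The libraries held 2832205 to 3695133 miRNA counts each, of which a single member took 2553 to 33867. The endothelial arms miR-126a-3p and miR-126a-5p, which mark the dense lung vasculature, summed to 33668 to 61443 CPM (counts scaled to a common library size of 1e6), and the 6 epithelial miRNAs of the marker list to 30109 to 76545 CPM. No miRNA of either list was at 0. Irradiated library 1 of day 180 stood apart: it had the lowest total and a median Spearman correlation of 0.907 with the other libraries of its day, against 0.943 to 0.959 for those. miR-126a-3p had the highest count in all 24 libraries, 111657 to 136157, and no member came near it. Levels below are CPM on 1 scaling of all 24 libraries, and fold changes come from the test of each comparison. Whether the groups of a member overlapped was read from these CPM. The share of all tested miRNAs whose groups did not overlap was taken from CPM scaled over the libraries of that fit alone.

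The family was abundant, making up 0.5% to 1.79% of the counts of a library. miR-29a-3p ranked between 36th and 57th by count, miR-29b-3p between 51st and 85th, and miR-29c-3p between 55th and 106th. From highest to lowest group mean, miR-29a-3p stood at 9446 ± 679 CPM in day 14 controls, 8661 ± 818 CPM in day 14 irradiated, 7217 ± 1156 CPM in day 90 control, 7104 ± 1822 CPM in day 90 irradiated, 6110 ± 1049 CPM in day 180 control and 4581 ± 1170 CPM in day 180 irradiated lungs (SD, n = 4 each). miR-29c-3p stood at 3554 ± 400 CPM in day 14 irradiated, 3370 ± 116 CPM in day 14 control, 2796 ± 736 CPM in day 90 irradiated, 2675 ± 448 CPM in day 90 control, 2146 ± 398 CPM in day 180 control and 1529 ± 452 CPM in day 180 irradiated lungs. Both therefore had their highest means at day 14 and their lowest at day 180. miR-29b-3p had another order, with 4300 ± 586 CPM in day 180 control, 3479 ± 708 CPM in day 90 irradiated, 3143 ± 1087 CPM in day 180 irradiated, 2216 ± 710 CPM in day 90 control, 2019 ± 597 CPM in day 14 irradiated and 1831 ± 286 CPM in day 14 control lungs. In none of the 3 orders were neighbouring groups separated: the libraries of each group overlapped those of the next.

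**Figure D1:**
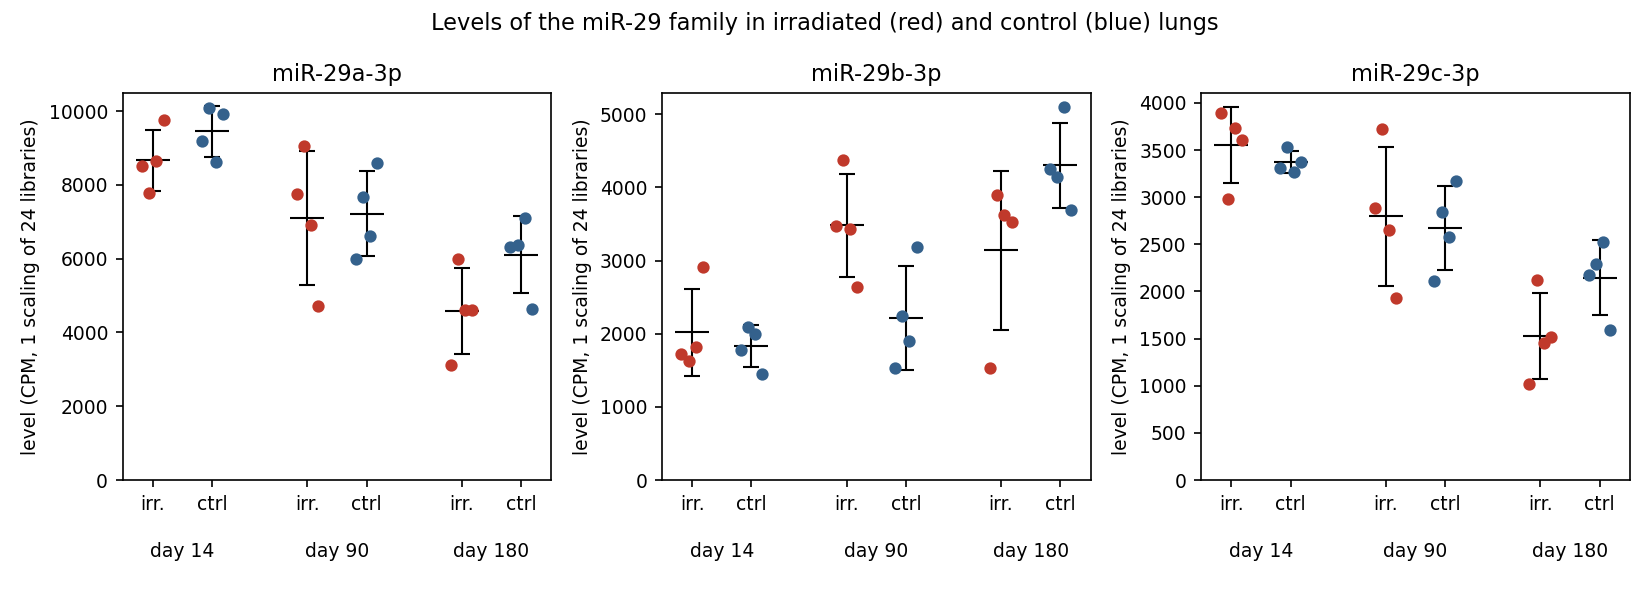
Level of each family member in CPM (linear axis from 0), with irradiated lungs (red) left of control lungs (blue) at day 14, 90 and 180. Points are libraries and bars the mean and SD (n = 4 each). miR-29a-3p and miR-29c-3p are highest at day 14, while miR-29b-3p is lowest there.

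At day 14 after irradiation the family did not differ detectably between irradiated and control lungs. miR-29a-3p stood at 8498, 7766, 8633 and 9746 CPM in irradiated lungs, against 9175, 10083, 8616 and 9910 CPM in control lungs. miR-29b-3p stood at 1723, 1626, 1819 and 2907 CPM in irradiated lungs, against 1781, 2092, 2001 and 1449 CPM in control lungs. miR-29c-3p stood at 3895, 2982, 3737 and 3602 CPM in irradiated lungs, against 3312, 3529, 3263 and 3376 CPM in control lungs. In whole lung, fewer cells of a type and less of a miRNA per cell cannot be told apart. The groups overlapped for every member, as they did in all but 2.4% of the miRNAs tested, and a single irradiated library, library 4, set the higher mean of miR-29b-3p. For miR-29c-3p, 3 irradiated libraries lay above all controls and the other one below them. The log2 fold changes of irradiated over control lungs were -0.12 ± 0.10 (SE) for miR-29a-3p, 0.14 ± 0.21 for miR-29b-3p and 0.08 ± 0.12 for miR-29c-3p. None of the 3 passed edgeR's quasi-likelihood test with Benjamini-Hochberg adjustment (adjusted p = 0.919, 0.94 and 0.94), which called 0 of 499 miRNAs (0%) at a threshold of 0.05, with 27 (5.41%) at an unadjusted p under 0.05 and 1 called by DESeq2. Exact two-sided permutation tests of 4 against 4 libraries gave p = 0.171, 0.743 and 0.4, where the smallest possible is 0.0286. Without irradiated library 4 the log2 fold change of miR-29b-3p was -0.04.

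At day 90, miR-29b-3p had the largest difference of the family, 1.57-fold higher in irradiated lungs, and it did not pass the test. It stood at 3477, 4373, 3429 and 2640 CPM in irradiated lungs, against 1536, 2244, 1897 and 3189 CPM in control lungs. Irradiated libraries 1, 2 and 3 lay above all controls, and control library 4 lay above irradiated library 4, so the groups overlapped, while 7.17% of the miRNAs tested did not overlap. Its log2 fold change was 0.65 ± 0.22 (SE), with an unadjusted p of 0.0132, an edgeR adjusted p of 0.269 and an exact permutation p of 0.0571. Of 558 miRNAs tested, 12.9% had a larger absolute log2 fold change. The same test called 2 of 558 (0.358%), and 71 (12.7%) had an unadjusted p under 0.05. Without control library 4 the log2 fold change of miR-29b-3p was 0.83 (edgeR adjusted p = 0.088). Over all alternatives run, its adjusted p lay between 0.088 and 0.593. Both miRNAs called at day 90 are markers of other tissues, miR-133b-3p of striated muscle (log2 fold change 2.48 ± 0.36, SE) and miR-122-3p of hepatocytes (1.64 ± 0.26), with an edgeR adjusted p of 0.0221 each. Of the 6 striated muscle miRNAs 6 were above 0 (median log2 fold change 1.44), and they summed to 891 to 3703 CPM in irradiated lungs, against 338 to 1189 CPM in control lungs. Both hepatocyte miRNAs were above 0 (median 1.77), and they summed to 621 to 1021 CPM in irradiated lungs, against 155 to 467 CPM in control lungs. None was at 0 in every library of a group, and their part in the values of the family was not tested.

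For the other 2 members the difference at day 90 was within the spread of the libraries. miR-29a-3p stood at 7743, 9047, 6921 and 4707 CPM in irradiated lungs, against 5979, 7678, 6616 and 8595 CPM in control lungs. miR-29c-3p stood at 2882, 3720, 2648 and 1935 CPM in irradiated lungs, against 2110, 2848, 2574 and 3168 CPM in control lungs. For both, irradiated library 2 was above all controls and irradiated library 4 below them. The log2 fold changes were -0.02 ± 0.19 (SE) and 0.06 ± 0.20 (edgeR adjusted p = 0.976 and 0.944, exact permutation p = 0.971 and 0.829), and the sign of each changed with a library left out, that of miR-29a-3p also with another scaling.

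At day 180 all 3 members had lower means in irradiated lungs, and none passed the test. miR-29a-3p stood at 3116, 5980, 4617 and 4611 CPM in irradiated lungs, against 6316, 6379, 7112 and 4633 CPM in control lungs. miR-29b-3p stood at 1529, 3896, 3621 and 3525 CPM in irradiated lungs, against 4257, 4147, 5099 and 3695 CPM in control lungs. miR-29c-3p stood at 1018, 2117, 1456 and 1522 CPM in irradiated lungs, against 2173, 2293, 2528 and 1592 CPM in control lungs. On this scaling the pattern over libraries was the same for each member. Irradiated libraries 1, 3 and 4 were below all controls, and irradiated library 2 was above control library 4 only. The order depends on the scaling. As a share of all counts of a library, the family made up 1.12% and 1.14% in irradiated libraries 3 and 4, against 0.99% in control library 4. The groups therefore overlapped, while they did not in 12% of the miRNAs tested. The members were measured in the same libraries, so this is not 3 separate observations.

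The log2 fold changes at day 180 were -0.40 ± 0.23 (SE) for miR-29a-3p, -0.43 ± 0.29 for miR-29b-3p and -0.47 ± 0.26 for miR-29c-3p. The edgeR adjusted p was 0.392, 0.457 and 0.377, and the exact permutation p, which rests on the same scaling of CPM, was 0.0571 for each. Between 44.6% and 53.1% of the 552 miRNAs tested had a larger absolute log2 fold change at this day. edgeR called 0 of 552 (0%), with 101 (18.3%) at an unadjusted p under 0.05 and 28 called by DESeq2. Without irradiated library 1, the one that stood apart, the log2 fold changes were -0.25, -0.21 and -0.32 (edgeR adjusted p = 0.355, 0.343 and 0.338). Of the 3 fibroblast miRNAs of the marker list, miR-199a-5p and miR-214-3p summed to 2534 to 11178 CPM in irradiated lungs, against 5450 to 6044 CPM in control lungs at day 180. With miR-199a-3p, whose count is uncertain in this table, the sums were 3063 to 11228 CPM in irradiated and 5780 to 7605 CPM in control lungs. None of the 3 was called, and their part in these values was not tested.

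**Figure D2:**
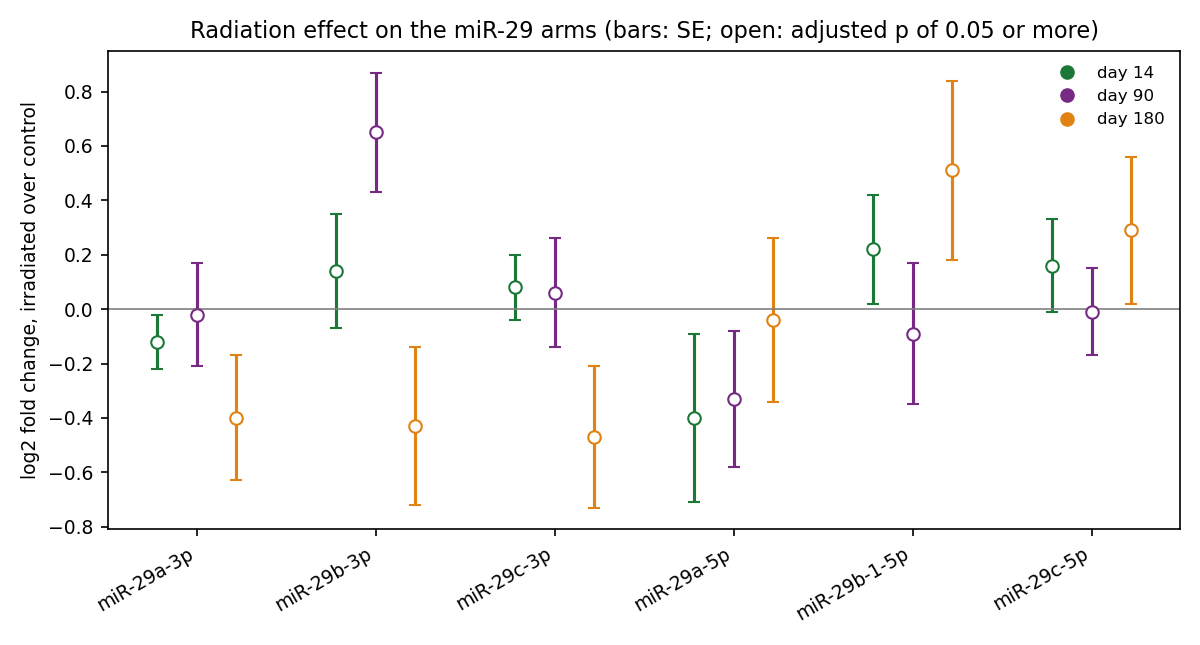
Log2 fold change of irradiated over control lungs for the 3p members and the 3 tested 5p arms at day 14, 90 and 180, with SE bars. Every point is open, because none reached an adjusted p under 0.05. miR-29b-3p is highest at day 90 (0.65), and all 3p members are below 0 at day 180.

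The radiation effect was also compared between days, each day against its own controls. For miR-29b-3p the effect at day 180 was lower than that at day 90 by a log2 difference of -1.10 ± 0.37 (SE), with an unadjusted p of 0.00705 that gave an edgeR adjusted p of 0.269. The corresponding differences were -0.39 ± 0.27 for miR-29a-3p and -0.55 ± 0.29 for miR-29c-3p (edgeR adjusted p = 0.496 and 0.375). For day 180 minus day 14 they were -0.29 for miR-29a-3p, -0.59 for miR-29b-3p and -0.57 for miR-29c-3p (edgeR adjusted p = 0.738, 0.535 and 0.438). For day 90 minus day 14 they were 0.10, 0.51 and -0.01, with an edgeR adjusted p of 0.996 for each. edgeR called 0 of 624 miRNAs (0%) in each of the 3, with 91 (14.6%), 71 (11.4%) and 28 (4.49%) at an unadjusted p under 0.05 for day 180 minus day 90, day 180 minus day 14 and day 90 minus day 14. DESeq2 called 2, 3 and 1. Single libraries moved these differences: with each left out in turn, day 180 minus day 90 ran from -0.54 to -0.20 for miR-29a-3p (-0.20 without irradiated library 2 of day 90) and from -0.69 to -0.33 for miR-29c-3p (-0.33 without the same library). Day 180 minus day 14 ran from -0.36 to -0.13 for miR-29a-3p (-0.13 without control library 3 of day 180) and from -0.66 to -0.32 for miR-29b-3p (-0.32 without irradiated library 4 of day 14).

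Over time, in lungs that were never irradiated, all 3 members passed the test. Between day 14 and day 180, miR-29b-3p rose 2.37-fold in control lungs, while miR-29a-3p fell to 0.652-fold and miR-29c-3p to 0.642-fold. miR-29b-3p stood at 4257, 4147, 5099 and 3695 CPM in day 180 controls, against 1781, 2092, 2001 and 1449 CPM in day 14 controls. Every day 180 library lay above every day 14 library. For miR-29a-3p all day 180 controls (4633 to 7112 CPM) were below all day 14 controls (8616 to 10083 CPM), and for miR-29c-3p likewise (1592 to 2528 against 3263 to 3529 CPM).

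The log2 fold changes of day 180 over day 14 in controls were 1.24 ± 0.21 (SE) for miR-29b-3p, -0.62 ± 0.14 for miR-29a-3p and -0.64 ± 0.16 for miR-29c-3p. The edgeR adjusted p was 0.00509, 0.0266 and 0.0301, and the exact permutation p was 0.0286 for each, the smallest possible. In this comparison 49 of 564 miRNAs were called (8.69%), 14 higher (2.48%) and 35 lower (6.21%). An unadjusted p under 0.05 was reached by 146 (25.9%), and the groups did not overlap in 19.7%. miR-29b-3p ranked 7th of 564 by p, and 7.8% had a larger absolute log2 fold change, while the value was 26.1% for miR-29a-3p. The call of miR-29b-3p held under all 20 alternatives (adjusted p of 8.41e-06 to 0.0263). That of miR-29a-3p was lost with upper-quartile scaling, with the library totals behind the authors' RPM values, with the replicate number as a block (replicate block) and without day 14 control library 2 or 4 or day 180 control library 1 or 2 (adjusted p of up to 0.0723), and that of miR-29c-3p under the same alternatives and without day 14 control library 3 (up to 0.0761).

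Each day has a table of its own, so the day cannot be told apart from how its table was made. The tables differed in how related miRNAs were counted: among miRNAs with at least 100 summed counts, 8 sets (17 miRNAs) had identical counts in all 8 libraries of the day 14 table, 8 sets (17 miRNAs) in the day 90 table and 0 in the day 180 table. No arm of the miR-29 hairpins was in such a set. One set was miR-199a-3p and miR-199b-3p, whose mature sequences are identical. At day 180 their counts differed from library to library, with 4 to 2155 CPM for miR-199a-3p and 24 to 2006 CPM for miR-199b-3p over the control libraries, so the level of either cannot be compared with day 14. Between the same control groups the other 2 fibroblast miRNAs summed to 5450 to 6044 CPM at day 180, against 4661 to 6939 CPM at day 14. Their log2 fold changes were 0.01 for miR-199a-5p and 0.67 for miR-214-3p, with no call. Of the 2 endothelial arms, miR-126a-3p, the one at the top of the counts in each library, was lower, with 28679 to 33251 CPM at day 180, against 38531 to 51817 CPM at day 14 (log2 fold change -0.55 ± 0.09, SE, edgeR adjusted p = 0.00509). Its raw counts were nearly constant in the day 180 controls, 112416 to 112941, while the totals of these libraries ran from 3393830 to 3695133. In day 14 controls they were 113216 to 136157. The sources used here do not say whether the highest counts were capped, so this difference is uncertain. miR-126a-5p stood at 8278 to 12900 CPM at day 180, against 9626 to 13101 CPM at day 14 (0.03 ± 0.14). The most abundant miRNAs were mostly below 0 in this comparison: of 34 with a mean of at least 10000 CPM, 5 were above 0 and the median log2 fold change was -0.23, against 0.06 for the 67 miRNAs between 1000 and 10000 CPM, the range in which the members fall. The part of any of these in the change of the family was not tested.

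**Figure D3:**
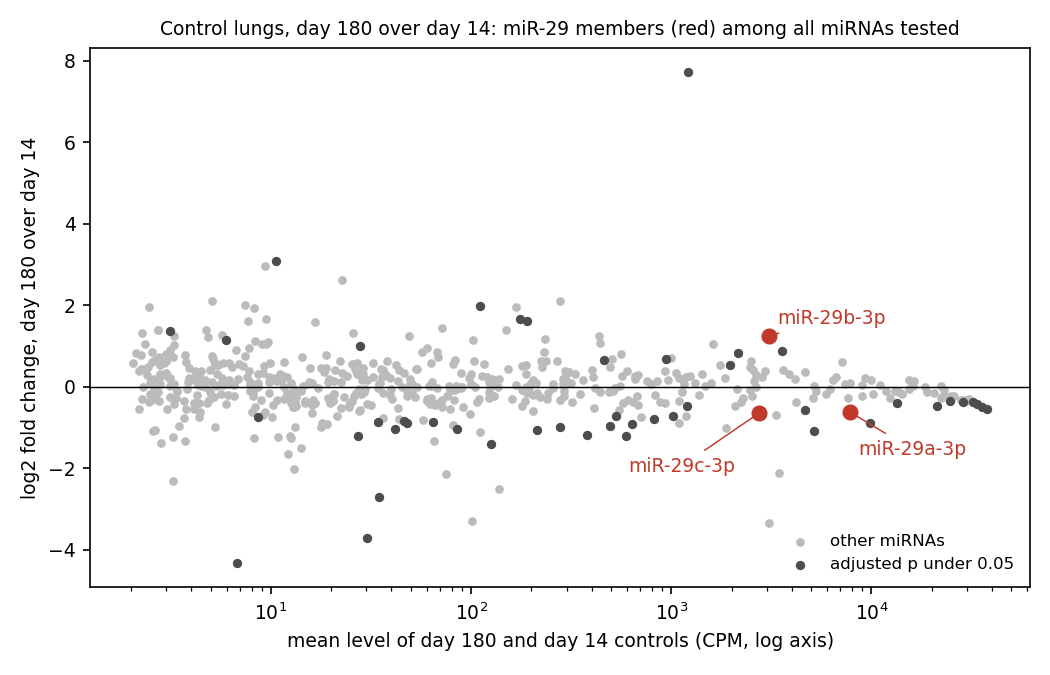
Log2 fold change of day 180 over day 14 in control lungs against mean level in CPM (log axis) for the 564 miRNAs tested; dark points passed at an adjusted p under 0.05 and the family is in red. miR-29b-3p lies at 1.24, above most miRNAs of its abundance, while miR-29a-3p and miR-29c-3p lie at -0.62 and -0.64.

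Day 90 controls lay between. For day 90 over day 14 the log2 fold changes were -0.38 ± 0.14 (SE) for miR-29a-3p, 0.28 ± 0.21 for miR-29b-3p and -0.33 ± 0.16 for miR-29c-3p. No member passed (edgeR adjusted p = 0.136, 0.432 and 0.234), where 20 of 564 (3.55%) were called, 6 higher (1.06%) and 14 lower (2.48%), and 127 (22.5%) had an unadjusted p under 0.05. The groups did not overlap for miR-29a-3p and miR-29c-3p, as in 13.1% of miRNAs tested. For day 180 over day 90 they were -0.23 ± 0.14, 0.97 ± 0.21 and -0.31 ± 0.16 in the same order, again with no call (edgeR adjusted p = 0.49, 0.0842 and 0.349). Left-out libraries moved the value of miR-29b-3p for day 90 over day 14 to between 0.05 (without day 90 control library 4) and 0.43 (without day 90 control library 1). They moved day 180 over day 90 to -0.10 for miR-29a-3p and -0.17 for miR-29c-3p, each without day 180 control library 4. edgeR called 0 of 564 (0%) there, with 99 (17.6%) at an unadjusted p under 0.05, and DESeq2 called 32. All day 180 controls were above all day 90 controls in miR-29b-3p, as groups did not overlap in 13.3% of miRNAs. That member passed with upper-quartile scaling, DESeq2 and limma-voom and without day 90 control library 4 (adjusted p of 0.00508 to 0.0376).

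In irradiated lungs miR-29a-3p and miR-29c-3p also fell between day 14 and day 180. miR-29a-3p stood at 3116 to 5980 CPM at day 180, against 7766 to 9746 CPM at day 14, a 0.549-fold level. miR-29c-3p stood at 1018 to 2117 CPM at day 180, against 2982 to 3895 CPM at day 14, a 0.445-fold level. Neither pair of groups overlapped. miR-29b-3p stood at 1529, 3896, 3621 and 3525 CPM at day 180, against 1723, 1626, 1819 and 2907 CPM at day 14, with library 1 of day 180 below all day 14 libraries and the other 3 above them.

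The log2 fold changes were -0.87 ± 0.21 (SE) for miR-29a-3p, -1.17 ± 0.24 for miR-29c-3p and 0.70 ± 0.28 for miR-29b-3p (edgeR adjusted p = 0.0186, 0.0093 and 0.125; exact permutation p = 0.0286, 0.0286 and 0.143). Of 591 miRNAs 76 were called (12.9%), 40 higher (6.77%) and 36 lower (6.09%), and the groups did not overlap in 16.8%. Without irradiated library 1 of day 180 the log2 fold change of miR-29b-3p was 0.91 and passed (edgeR adjusted p = 0.0134), and over all alternatives run its adjusted p lay between 0.0134 and 0.351. The call of miR-29a-3p was lost with the authors' totals (0.0516) and without day 14 irradiated library 1 or 4 (0.0529 and 0.0619). The change over this interval in irradiated lungs minus that in controls is the day 180 minus day 14 difference given above, which passed for no member. Between the same irradiated groups the fibroblast miRNAs miR-199a-5p and miR-214-3p summed to 2534 to 11178 CPM at day 180, against 4997 to 6395 CPM at day 14. Their log2 fold changes were 0.44 and 0.05 with no call, and their part in the change was not tested.

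Over the shorter intervals no member passed in irradiated lungs. For day 90 over day 14 the log2 fold changes were -0.33 ± 0.21 (SE) for miR-29a-3p, 0.75 ± 0.28 for miR-29b-3p and -0.39 ± 0.23 for miR-29c-3p (edgeR adjusted p = 0.449, 0.204 and 0.417), where 7 of 591 (1.18%) were called, 2 higher (0.338%) and 5 lower (0.846%). Without irradiated library 1 of day 180, which enters this fit through the scaling, the filter and the shared spread, miR-29b-3p passed with 0.79 (edgeR adjusted p = 0.0396). Without irradiated library 4 of day 90 the values were -0.13 for miR-29a-3p and -0.20 for miR-29c-3p. For day 180 over day 90 they were -0.54 ± 0.21, -0.05 ± 0.28 and -0.78 ± 0.24 in the same order (edgeR adjusted p = 0.196, 0.933 and 0.0857), where 18 of 591 (3.05%) were called, 14 higher (2.37%) and 4 lower (0.677%). miR-29c-3p passed there with DESeq2 (0.0259) and without irradiated library 2 of day 180 (0.038). The comparisons between days share libraries, so they are not independent of each other.

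**Figure D4:**
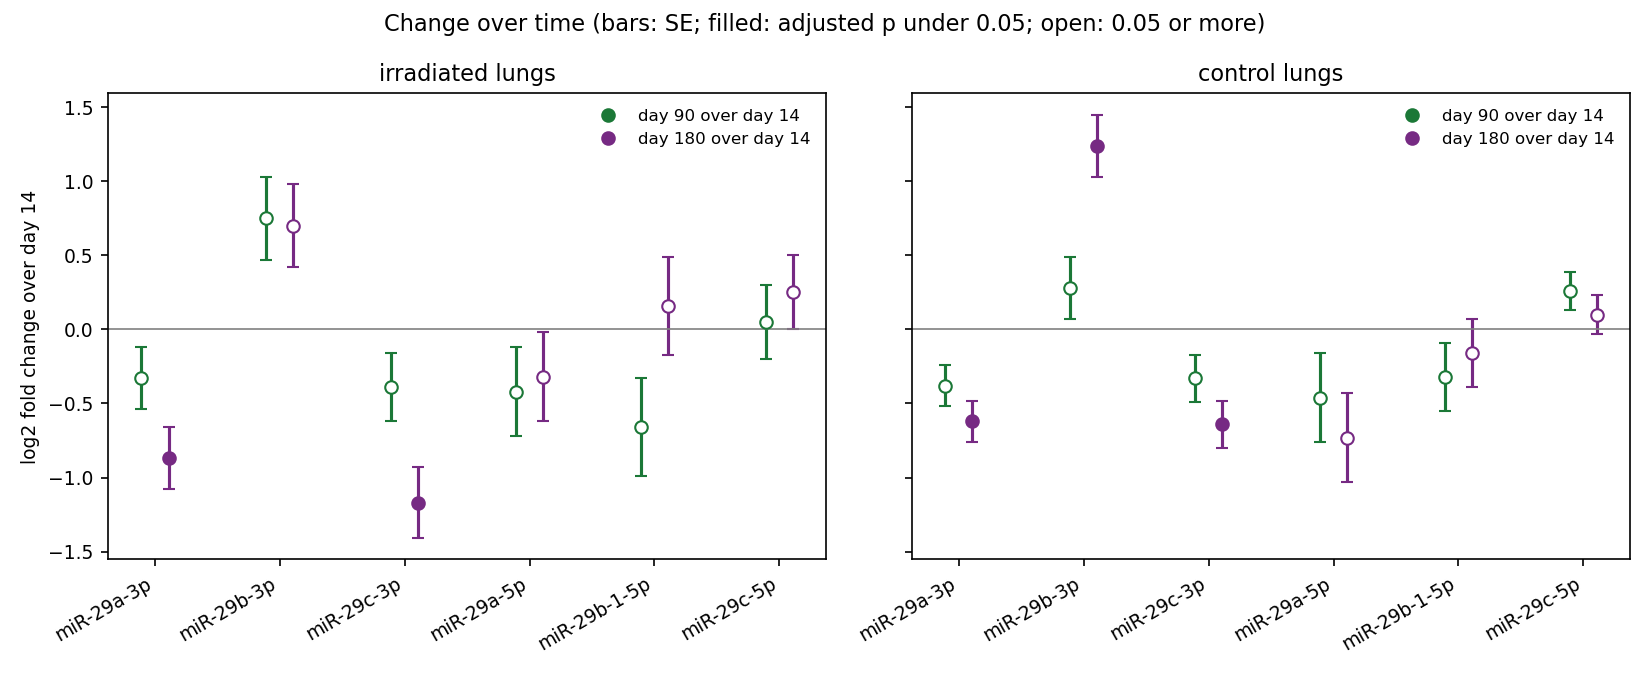
Log2 fold change of day 90 and day 180 over day 14 in irradiated lungs (left) and control lungs (right) for the 3p members and the 3 tested 5p arms, with SE bars. Filled points have an adjusted p under 0.05: miR-29a-3p and miR-29c-3p at day 180 in both panels, and miR-29b-3p at day 180 in control lungs.

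In irradiated and in control lungs, miR-29b-3p held a larger share of the family at the later days. Its share of the summed CPM of the 3 members was 14.0 ± 2.61% in irradiated and 12.5 ± 1.95% in control lungs at day 14 (SD, n = 4 each). It was 26.2 ± 1.62% in irradiated and 18.0 ± 2.33% in control lungs at day 90, and 33.3 ± 4.73% in irradiated and 34.4 ± 2.11% in control lungs at day 180. At day 90 the 4 irradiated shares (24.7% to 28.4%) lay above the 4 control shares (16% to 21.3%), and at the other days the groups overlapped. In CPM, the groups did not overlap in 7.17% of the miRNAs tested at day 90, and those of miR-29b-3p did overlap. No such rate was computed for shares within a family. The shares are given as a description with no test, since members and summary were chosen with results known.

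The ratio of miR-29b-3p to miR-29a-3p gave the same order over groups. It was 0.203 to 0.298 in irradiated and 0.146 to 0.232 in control lungs at day 14, 0.449 to 0.561 in irradiated and 0.257 to 0.371 in control lungs at day 90, and 0.491 to 0.784 in irradiated and 0.65 to 0.797 in control lungs at day 180. The ratio of miR-29c-3p to miR-29a-3p lay in a narrower range, between 0.315 and 0.458 in all 24 libraries. In irradiated lungs it was 0.37 to 0.458 at day 14 and 0.315 to 0.354 at day 180, which did not overlap. In control lungs it was 0.341 to 0.379 at day 14 and 0.344 to 0.359 at day 180. These ratios were not tested, and no background rate was computed for them. The summed level of the family was 14234 ± 1590 CPM in irradiated lungs at day 14, against 14647 ± 787 CPM in controls. At day 90 it was 13380 ± 3250 CPM in irradiated lungs, against 12108 ± 2290 CPM in controls, and at day 180 it was 9252 ± 2630 CPM in irradiated lungs, against 12556 ± 1990 CPM in controls. The libraries of the groups overlapped at each day. Ratios within a library do not depend on its scaling.

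**Figure D5:**
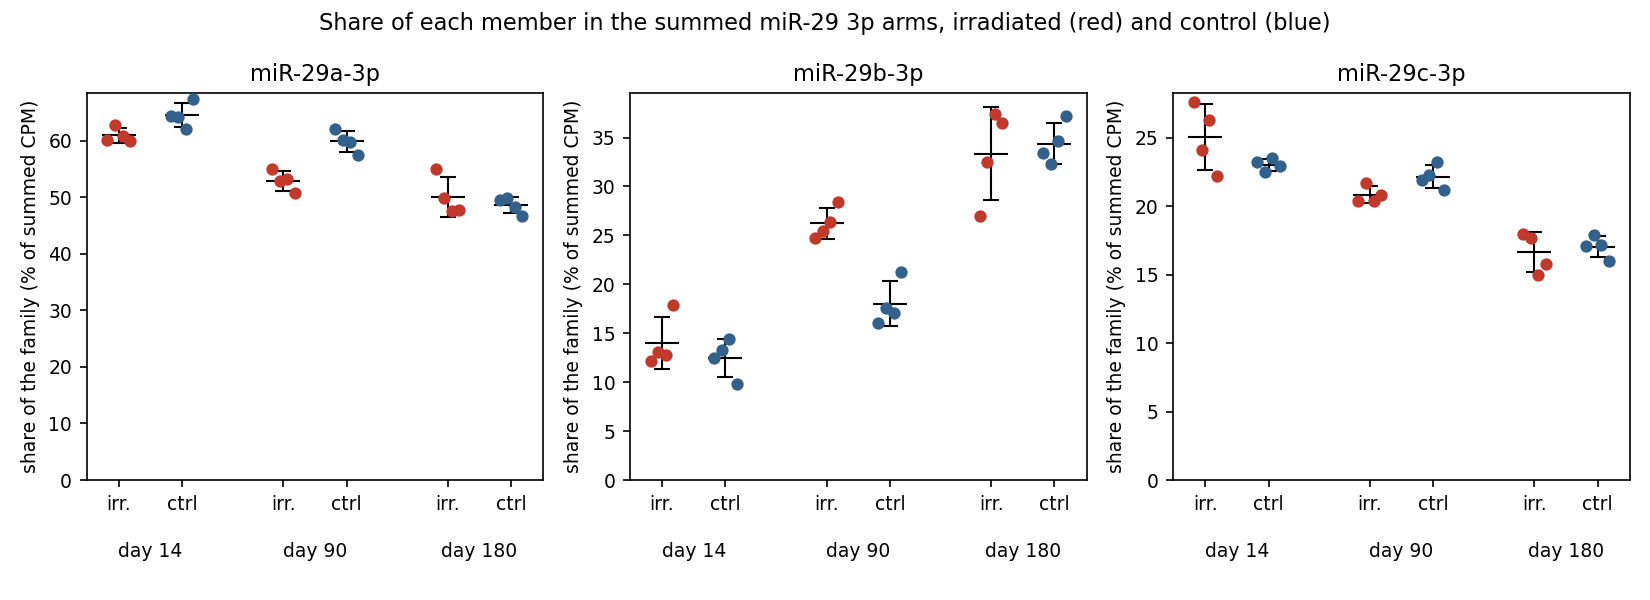
Share of each member in the summed CPM of the family (percent, axis from 0), irradiated lungs (red) left of control lungs (blue) at day 14, 90 and 180, with mean and SD of 4 libraries. The share of miR-29b-3p is 9.8% to 17.9% at day 14 and 27% to 37.4% at day 180, and at day 90 the irradiated libraries are all above the controls. The separation at day 90 was not tested, and no background rate for shares was computed.

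The 5p arms, cut from the same hairpins and usually degraded, were far less abundant than the 3p arms. Only miR-29c-5p reached more than 100 CPM, with 183 to 361 CPM over the irradiated and 167 to 250 CPM over the control libraries. miR-29a-5p had 11.6 to 26.7 CPM in irradiated lungs, against 14.1 to 37.2 CPM in control lungs, and miR-29b-1-5p had 17.6 to 58.2 CPM in irradiated lungs, against 15.2 to 33.1 CPM in control lungs. miR-29b-2-5p had 1 to 9 counts per library and was not tested. None of the 3 tested arms passed in any comparison.

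In day 180 over day 14 controls the log2 fold changes of the 5p arms were -0.73 ± 0.30 (SE) for miR-29a-5p, -0.16 ± 0.23 for miR-29b-1-5p and 0.10 ± 0.13 for miR-29c-5p. As miR-29b-3p rose, the summed 5p arms of its 2 hairpins came to 0.52% to 0.68% of it in day 180 controls, against 1.41% to 2.13% in day 14 controls. This share falls when miR-29b-3p rises, so it is not a separate observation, and the day cannot be told apart from its table. miR-29c-5p came to 11.74% to 35.41% of miR-29c-3p in day 180 irradiated lungs, against 8.06% to 13.36% in day 180 controls, and irradiated library 1, with 361 CPM of the 5p arm and 1018 CPM of the 3p arm, held the highest value. For the arms of the miR-29b hairpins the shares at day 180 were 0.74% to 1.75% in irradiated and 0.52% to 0.68% in control lungs. The higher irradiated values came from library 1, low in miR-29b-3p (1529 CPM), and library 4, high in miR-29b-1-5p (58.2 CPM). These shares of 5p arms were not tested, and no background rate was computed for them.

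Within a group, a library high in one member tended to be high in the others. After the 6 group means were subtracted, Pearson's r of log2 CPM over the 24 libraries was 0.96 between miR-29a-3p and miR-29c-3p, 0.81 between miR-29a-3p and miR-29b-3p, and 0.76 between miR-29b-3p and miR-29c-3p. With the group means kept, r was 0.97, -0.16 and -0.19 in that order. The points share libraries, depth and scaling, and near-identical sequences could share reads, so these values are given as a description.

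Among 623 other miRNAs, miR-29c-3p was the one most like miR-29a-3p over the 24 libraries (r = 0.97), followed by miR-362-3p (0.82), miR-19b-3p (0.81), miR-181d-5p (0.80) and miR-497a-5p (0.80). For miR-29c-3p they were miR-29a-3p, miR-19b-3p (0.82), miR-672-3p (0.80), miR-181b-5p (0.79) and miR-362-3p (0.79). The miRNAs most like miR-29b-3p were others and less close: miR-381-3p (0.72), miR-32-5p (0.69), miR-193b-3p (0.66), miR-369-5p (0.62) and miR-214-5p (0.61). With group means subtracted, miR-381-3p was among the 5 closest to each member (0.71 to 0.77). It belongs to the imprinted miRNA cluster of chromosome 12.

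Other miRNAs described as restraining fibrosis were set beside the family. Of the 20 listed, among them the miR-200 family, let-7d-5p and miR-26a-5p, 0 passed with edgeR for irradiated over control lungs at any day, with 20, 20 and 19 tested. Their median log2 fold change was -0.01 at day 14, 0.01 at day 90 and -0.16 at day 180, against 0.01, -0.02 and 0.13 over all miRNAs tested. For day 180 over day 14 in controls 9 were above 0 and 11 below. Of the 20, 0 were called higher and 5 lower, where 6.21% of all miRNAs were called lower, and the median was -0.07 against 0.02 over all. The 5 were miR-200b-3p (-0.57 ± 0.13, SE), miR-200c-3p (-0.41 ± 0.11), miR-26a-5p (-0.49 ± 0.10), miR-19b-3p (-1.20 ± 0.31) and miR-486a-5p (-0.97 ± 0.26), so the fall of miR-29a-3p and miR-29c-3p was shared in sign by these and the rise of miR-29b-3p by no called member. miR-486a-5p is also an erythroid miRNA, and the miR-200 miRNAs are also epithelial markers. The count of miR-486a-5p is uncertain between these tables, since it equals that of miR-486b-5p in all libraries of day 14 and not at day 180. miR-26a-5p stood close below miR-126a-3p in day 180 controls (means of 29580 and 30540 CPM). The uncertainty of the highest counts given above may therefore extend to it. In irradiated lungs over the same interval 5 were above 0 and 15 below, with 0 called higher and 3 lower, where 6.09% of all miRNAs were called lower, and a median of -0.26 against 0.11 over all. The 3 were let-7d-5p (-0.49 ± 0.13, SE), miR-19a-3p (-1.53 ± 0.34) and miR-19b-3p (-1.51 ± 0.22). For day 90 over day 14 in controls, miR-200b-3p (-0.56 ± 0.13), miR-200c-3p (-0.57 ± 0.11) and miR-26a-5p (-0.48 ± 0.10) were lower, where 2.48% of all miRNAs were, and for day 180 over day 90 in irradiated lungs miR-19a-3p was (-1.39 ± 0.33), where 0.677% were.

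Of the 15 listed as promoting fibrosis, 0 passed with edgeR for irradiated over control lungs at any day, with medians of 0.02 at day 14, 0.10 at day 90 and 0.42 at day 180. For day 180 over day 14 in controls 0 were called higher and 2 of 15 lower, miR-21a-5p (-0.46 ± 0.09, SE) and miR-322-5p (-0.89 ± 0.15), where 6.21% of all miRNAs were called lower. In irradiated lungs over the same interval miR-155-5p, a miRNA of activated immune cells, was higher (1.49 ± 0.40, edgeR adjusted p = 0.0275) and miR-199a-3p lower (-2.45 ± 0.63, edgeR adjusted p = 0.0245), which is 1 of 15 in each direction, where 6.77% of all miRNAs were called higher and 6.09% lower. The count of miR-199a-3p is uncertain between these tables, as given above. For day 180 over day 90 in irradiated lungs miR-155-5p was higher (2.11 ± 0.40, edgeR adjusted p = 0.0194), 1 of 15, where 2.37% of all miRNAs were called higher. For day 90 over day 14 in controls miR-21a-5p was lower (-0.36 ± 0.09, edgeR adjusted p = 0.0486), 1 of 15, where 2.48% were called lower. It is among the 34 miRNAs with a mean of at least 10000 CPM there, of which 7 were called lower.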

How the data were processed

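Small RNA of 18 to 30 nt was sequenced, per the labels' protocols. The authors deposited, for each day, whole-number counts per mature miRNA and library, not normalised per the file headers and values, and RPM values, for which the same counts were divided by library totals of 11984009 to 16081430. What those totals hold, and whether molecular identifiers were used, the sources used here do not say. The submitters' processing notes name Bowtie2 and the build GRCm38.p6 without saying for which step. Errors given here come from the spread between libraries. Means of counts and of RPM (as signal and RPM columns) that the authors deposited were not used.

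Each day was tested with edgeR 4.0.16 (R 4.3.3; filterByExpr, TMM, quasi-likelihood F-test, Benjamini-Hochberg, threshold 0.05), and differences between days on the 1477 miRNAs shared by the tables: effects in 24, controls in 12 and irradiated in 12 libraries. The test was checked on simulated counts. Members and lists were chosen with earlier results of these data known. The rule names the members, their 5p arms and the 5 miRNAs most like each by Pearson's r of log2 CPM (prior count 2). Listed miRNAs are named where they passed (all of the 2 fibrosis lists, some of the marker lists) or where a sum turns on them, and were chosen after their values were seen. The fibroblast sum without miR-199a-3p was also added after seeing the data. At day 14 same-numbered libraries deviated together (r of 0.11 to 0.38 in 4 of 4 pairs), a likeness by data and not by label. Irradiated library 2 was not closest to the control of its own number. No member was called at day 14 with the replicate number as a block, as without it. In controls, day 180 over day 14, the block lost the calls of miR-29a-3p and miR-29c-3p. Alternatives were RLE, upper-quartile and RPM-total scaling, no filter or a mean of at least 10 CPM, DESeq2 1.42.0, limma-voom (limma 3.58.1), a replicate block, 1 fit of all libraries and each library left out.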

Additional observations from a re-analysis of the deposited data

Results flagged for a closer look

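In 42 groups of 4 libraries, made of the 7 miR-29 arms in 6 groups, 3 held 1 library far from the others, with a gap to the nearest of them past Dixon's 95% critical value for 4 samples. Chance gives about 1 in 20. miR-29b-3p stood at 2906.9 CPM in irradiated library 4 of day 14, against 1626.5 to 1818.8 CPM in the other 3. It stood at 1529.3 CPM in irradiated library 1 of day 180, against 3524.7 to 3895.5 CPM in the other 3, and this is the library that stood apart in depth and in similarity to the others. miR-29b-1-5p stood at 58.198 CPM in irradiated library 4 of day 180, against 25.731 to 28.466 CPM in the other 3.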

How the results depend on the processing

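For 36 results on the 3p members, 801 alternative values were computed, and 753 kept direction and side of the threshold. The radiation effect at each day and its difference between days passed in none of them for any 3p member. Small values changed sign: miR-29a-3p at day 90 was 0.02 with upper-quartile scaling and 0.003 with the authors' totals, and miR-29c-5p was 0.04 with each. miR-29a-5p at day 180 was 0.0012 with RLE size factors and 0.00077 at a mean of at least 10 CPM. The day 90 minus day 14 difference of miR-29c-3p was 0.00092 with RLE size factors, 0.05 with the authors' totals and 0.00089 with DESeq2.

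With 1 library left out, values ran from -0.04 to 0.25 for miR-29b-3p at day 14, and at day 90 from -0.18 to 0.11 for miR-29a-3p, -0.13 to 0.18 for miR-29c-3p, -0.24 to 0.14 for miR-29b-1-5p and -0.08 to 0.04 for miR-29c-5p. They ran from -0.27 to 0.08 for miR-29a-5p at day 180, and for day 90 minus day 14 from -0.05 to 0.26 for miR-29a-3p and -0.20 to 0.14 for miR-29c-3p. In controls, day 180 over day 14, they ran from -0.69 to -0.49 for miR-29a-3p and -0.72 to -0.51 for miR-29c-3p, and day 180 over day 90 from 0.83 to 1.20 for miR-29b-3p. In irradiated lungs, day 180 over day 14, they ran from -0.98 to -0.73 for miR-29a-3p, 0.59 to 0.91 for miR-29b-3p and -0.21 to 0.29 for miR-29b-1-5p. For miR-29b-3p there they ran from 0.62 to 0.97 for day 90 over day 14 and from -0.20 to 0.13 for day 180 over day 90, and for miR-29c-3p from -0.98 to -0.61 over that last interval.

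In controls, day 180 over day 14, miR-29a-3p and miR-29c-3p no longer passed with upper-quartile scaling (-0.56 and -0.58), the authors' totals (-0.58 and -0.60) and the replicate block (-0.61 and -0.64, adjusted p = 0.0644 each), and the cause was not tested. Over all miRNAs the block left 25 calls in place of 49. These libraries share only a number: same-numbered controls of the 2 days deviated together with r of 0.09 to 0.24, and not every library was closest to its own number. miR-29b-3p, day 180 over day 90 in controls, passed with upper-quartile scaling (0.98), DESeq2 (0.97) and limma-voom (1.01). In irradiated lungs miR-29a-3p did not pass with the authors' totals for day 180 over day 14 (-0.80), and miR-29c-3p passed with DESeq2 for day 180 over day 90 (-0.85). The authors' totals moved the median of all miRNAs by 0.21 for day 90 over day 14 and by -0.18 for day 180 over day 90 in irradiated lungs, and upper-quartile scaling by 0.12 for the difference of effects of day 180 and day 90. Calls over all miRNAs ranged from 15 to 83 (49 as reported) for controls and 27 to 113 (76) for irradiated lungs, day 180 over day 14, and from 0 to 7 (0), 0 to 19 (2) and 0 to 32 (0) for irradiated over control lungs at day 14, 90 and 180. They ranged from 0 to 51 (20) and 0 to 32 (0) for controls, and from 0 to 56 (7) and 2 to 48 (18) for irradiated lungs, day 90 over day 14 and day 180 over day 90, and from 0 to 1, 0 to 18 and 0 to 10 (0 each) for the differences of effects, day 90 minus 14, 180 minus 14 and 180 minus 90. Of the 5 most like miRNAs 4 or 5 were shared with RLE size factors, tried after seeing the data. The lowest count of a 3p member in any library was 2553, and the part of counting depth in these results was not tested.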
